A study of Mus musculus with 18 samples.

Results

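Loss of Abca4 was compared between the 2 tissues of the mouse eye that share the visual cycle, the neural retina and the RPE/choroid. The RPE/choroid is the dissected layer that holds the retinal pigment epithelium (RPE) and its vascular bed. For each gene the knockout effect in RPE/choroid (knockout minus wild type) was set against the knockout effect in retina, and the difference of these 2 log2 changes, called the interaction here, was tested. A negative interaction means that the knockout level, relative to wild type, was lower in RPE/choroid than in retina. The comparison uses 12 of the 18 libraries of the series, 3 from each of 4 groups: wild-type retina, Abca4-/- retina, wild-type RPE/choroid and Abca4-/- RPE/choroid. All mice were of a mixed 129SV and C57BL/6 background and were 30 days old. The other 6 libraries, from retina and RPE/choroid of mice homozygous for an Abca4 allele with the substitutions L541P and A1038V, entered the fit for the estimate of spread. Their values are set beside those of some genes, from comparisons that share the wild-type controls. No label ties the libraries to separate animals. The p-values therefore reflect only how far these samples spread, and that spread may be technical.

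Of 16222 genes tested, 22 (0.136%) passed an adjusted p of 0.05, 16 (0.0986%) with a negative and 6 (0.037%) with a positive interaction. Ppara, a nuclear receptor that controls fatty acid oxidation, stood first: its transcript rose 19.96-fold in knockout retina and not past the test in knockout RPE/choroid. The visual cycle genes Rpe65 and Rgr, the pigment gene Oca2 and the growth factor gene Fgf2 also rose in retina without passing the test in RPE/choroid. In the other direction, Npy, Car4 and Bcat1 fell in knockout RPE/choroid, and Npy and Bcat1 did not pass the test in retina. The matricellular protein gene Nov rose in RPE/choroid, which made up the smaller part of its interaction. The larger part came from a fall in retina at very low fragment counts.

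As background, ABCA4 is a flippase of photoreceptor outer segment discs that moves retinoid adducts out of the disc lumen. The retinaldehyde it helps to clear is reduced in the photoreceptor and handed to the RPE, where LRAT and RPE65 return it to the 11-cis form. When ABCA4 is missing, bisretinoids build up in discs and reach the RPE with the outer segments it engulfs each day. The tissue that expresses most of the protein and the tissue in which its absence is best known to leave a deposit are therefore different ones.

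The tissue dissections were checked against their marker genes, since bulk RNA mixes cell types. Rod genes summed to between 28411 and 31160 FPKM (fragments scaled by gene length and library size, as deposited) in the 6 retinal libraries and to between 281 and 776 in 5 of the 6 RPE/choroid libraries. Wild-type RPE/choroid library 2 stood apart with 3231 FPKM of rod genes. RPE markers summed to between 682 and 731 FPKM in wild-type retina, between 791 and 944 in knockout retina, between 783 and 853 in knock-in retina, between 20479 and 23205 in wild-type RPE/choroid and between 18119 and 19870 in knockout RPE/choroid. Within that list Ptgds alone went from a mean of 44.0 FPKM in wild-type to 167 in knockout retina, so much of the rise in the knockout sum lies in this gene. Lens genes ran from 85.7 to 1195 FPKM in wild-type retina and from 772 to 16975 in knockout retina. RPE/choroid libraries also held skeletal muscle genes (6738 to 9528 summed FPKM) and surface epithelium genes (2721 to 5481), so this sample is wider than its label. Of the 12 libraries, 2 of 3 from wild-type retina, 1 of 3 from knockout retina and all 6 from RPE/choroid were male by Xist and Ddx3y. A term for sex left 16 of the 22 interaction calls and ended those of Cdnf, Ppp2r2c, Ptprz1, AA465934, Spata6 and Pepd. Libraries held 11553291 to 21663355 assigned fragments in retina and 17355989 to 30048060 in RPE/choroid. Libraries carry here the number of the deposited table, 0 to 2, within each group.

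**Figure D1:**
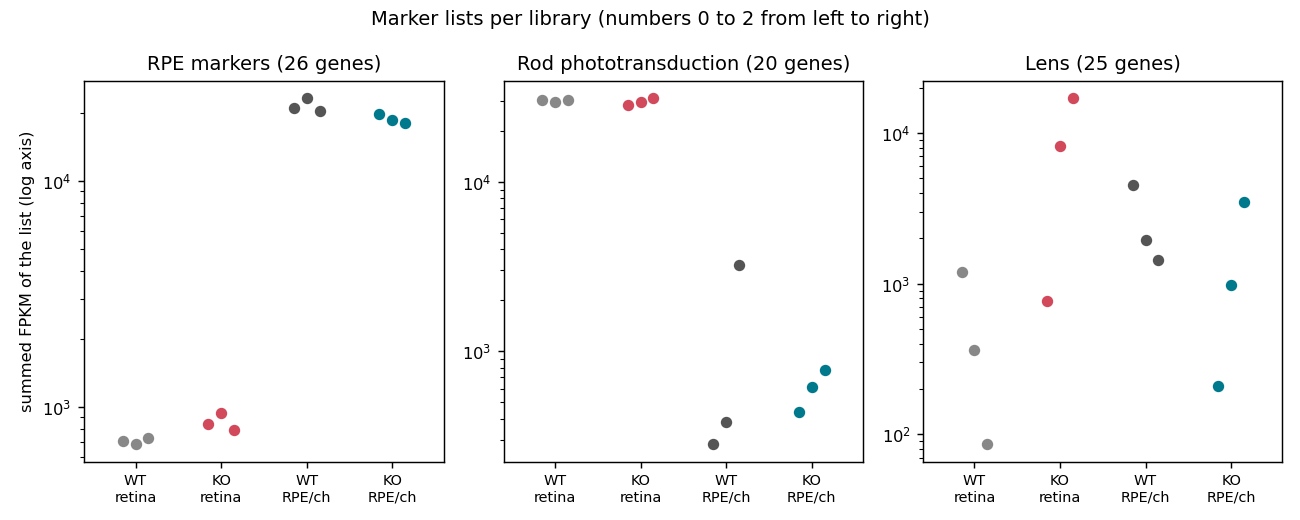
Summed FPKM (log axis) of 3 marker lists in each of the 12 libraries (points, numbers 0 to 2 from left to right), for wild type (WT) and knockout (KO) in retina and RPE/choroid. The RPE marker sum is higher in all 3 knockout retinal libraries than in the 3 of wild type, much of it through Ptgds. The rod genes are at 3231 in 1 wild-type RPE/choroid library, and the lens genes vary over more than a factor of 10 within retinal groups.

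The targeted gene differed in its absolute loss but not past the test in its relative loss. Abca4 (chr3:121747377-121882979, mm9) was at 282, 251 and 228 FPKM in wild-type retina and at 81.8, 80.3 and 73.9 in knockout retina. In RPE/choroid it was at 35.4, 38.4 and 59.5 in wild type and at 26.5, 25.6 and 26.2 in knockout. Neither tissue's groups overlapped, and the highest wild-type RPE/choroid value was in library 2, the one with the most rod transcripts. The log2 change was -1.68 (SE 0.0806, adjusted p = 4.32e-08) in retina and -0.79 (SE 0.169, adjusted p = 0.102) in RPE/choroid. The interaction was 0.90 (SE 0.203, 95% interval 0.47 to 1.33, adjusted p = 0.0985). Without wild-type RPE/choroid library 2 it was 1.16 with an adjusted p of 9.63e-05, and over all alternatives the adjusted p ranged from 9.63e-05 to 1. Fragments still counted on the gene in knockout tissue were not tied to particular exons here.

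The genes that changed in retina come first. In 9 of the 22 genes the retina rose and the RPE/choroid did not pass its own test, and in 1 the retina fell. For these tissue tests, 144 of 14699 genes (0.98%) were called in retina, 71 of them higher (0.483%) and 73 lower (0.497%). In RPE/choroid 73 of 15454 (0.472%) were called, 34 higher (0.22%) and 39 lower (0.252%). The 9 genes are Ppara, Rpe65, Rgr, Cftr, Arhgap29, Oca2, Fgf2, Nudt6 and Spata6. In wild-type mice each was higher in RPE/choroid than in retina, from 1.90-fold (Nudt6) to 395-fold (Rpe65). This was not particular to them. Of the other called genes, Capn6 (196-fold), Nov (40.5-fold), Car4 (10.1-fold), Pepd, Tm7sf3, Npy, Ptprz1 and Cdnf (1.30-fold) were also higher there. Acbd4, Mysm1, Bcat1, AA465934 and Ppp2r2c were lower, and the share over all genes was not taken.

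Ppara (chr15:85565993-85637281, mm9) was at 0.121, 0.155 and 0.126 FPKM in wild-type retina and at 2.82, 2.91 and 2.50 in knockout retina. In RPE/choroid it was at 2.31, 2.42 and 2.65 in wild type and 2.80, 3.12 and 3.57 in knockout. The knockout retina thus stood at 112% of the wild-type RPE/choroid level, against 5.45% for wild-type retina, and knockout values lay above wild type in both tissues. The counts behind this were 11 to 16 fragments per library in wild-type retina and 229 to 471 in knockout retina. The log2 change was 4.32 (SE 0.159, adjusted p = 2.29e-09) in retina and 0.35 (SE 0.0823, adjusted p = 0.115) in RPE/choroid, and the interaction was -3.96 (SE 0.164, 95% interval -4.31 to -3.62, adjusted p = 6.97e-10). Ppara was called under each of the 15 other ways of fitting and without each of the 12 libraries. Its value ran from -4.09 to -1.46 over these, the smallest being that of limma on log2(FPKM + 1), a scale that shrinks changes of low genes. Knock-in retina, which shares the wild-type controls, stood at 0.148, 0.158 and 0.185 FPKM.

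Genes that PPARA is known to regulate were read next. Of 25 tested genes of the PPAR and fatty acid oxidation list, Ppara was the only one called in the interaction, and the list's median was 0.13 against -0.018 over all genes tested. Within retina, 1 of 23 rose (Ppara) and 1 fell. The gene that fell was Cd36, a fatty acid and oxidised lipid receptor, at 1.23, 1.19 and 1.95 FPKM in wild type and 0.656, 0.660 and 0.570 in knockout. Its log2 change was -1.17 in retina (adjusted p = 0.0112) and 0.12 in RPE/choroid (adjusted p = 0.714), with an interaction of 1.29 (adjusted p = 0.0601). The members named next were chosen after their values were seen. Cpt1a of the mitochondrial carnitine shuttle had an interaction of 0.16 (adjusted p = 0.51) and Acadm of medium-chain oxidation 0.02 (adjusted p = 0.96).

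**Figure D2:**
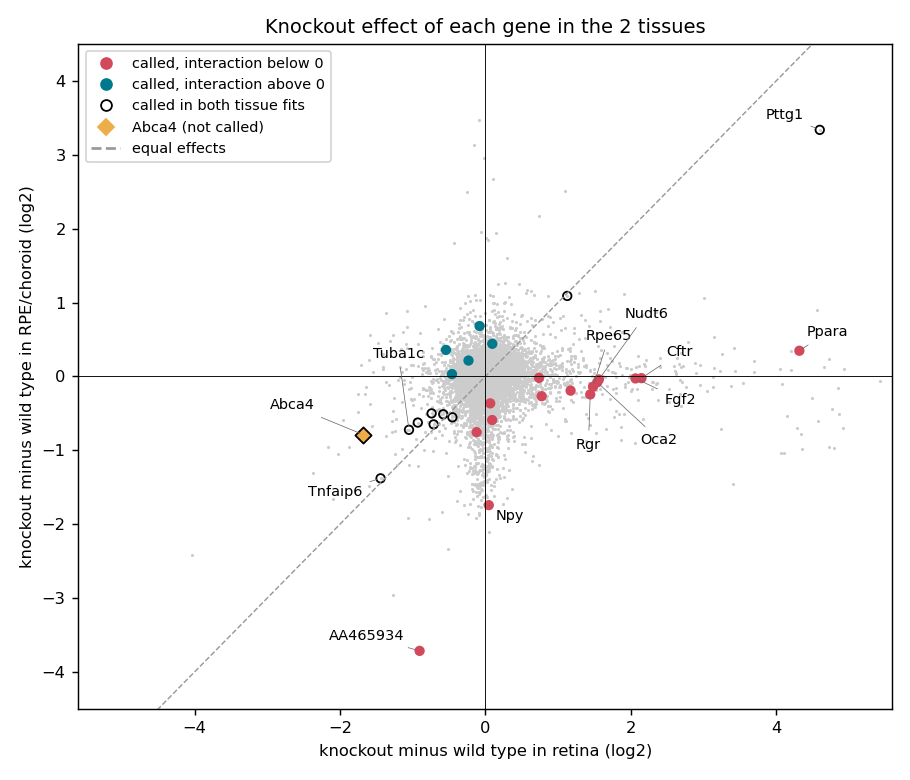
Each grey point is 1 of 13939 genes tested in both tissues, with the knockout effect in retina on the x axis and in RPE/choroid on the y axis (both log2). Genes with a called negative interaction lie to the right of or below the dashed line of equal effects, those with a positive one lie above it, and Ppara sits at 4.32 in retina and 0.35 in RPE/choroid. Car4 and Nov, not tested in retina, are not plotted.

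Fgf2 encodes basic fibroblast growth factor, a survival factor that photoreceptors and Müller glia are known to raise under stress. It was at 2.64, 3.22 and 2.14 FPKM in wild-type retina and 14.2, 9.89 and 8.42 in knockout retina. In RPE/choroid it was at 8.62, 7.19 and 5.70 in wild type and 6.11, 8.03 and 7.01 in knockout. The retinal groups were apart and the RPE/choroid groups overlapped. The log2 change was 2.06 (SE 0.248, adjusted p = 0.000879) in retina and -0.03 (SE 0.226, adjusted p = 0.966) in RPE/choroid, and the interaction was -2.08 (SE 0.344, 95% interval -2.81 to -1.35, adjusted p = 0.0208).

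Its neighbour Nudt6, a Nudix hydrolase gene whose transcripts are known as antisense partners of Fgf2, moved the same way. Nudt6 spans 37303905 to 37318512 of chromosome 3 (mm9) in the deposited tables, where Fgf2 ends at 37303752. RefSeq places Nudt6 on the minus strand and Fgf2 on the plus strand, so the low coordinate of Nudt6 is its transcript end. Its FPKM was 3.47, 2.59 and 2.47 in wild-type retina and 11.6, 6.98 and 6.57 in knockout retina, against 4.83 to 6.08 in wild-type and 4.90 to 6.01 in knockout RPE/choroid. The interaction was -1.59 (SE 0.273, 95% interval -2.17 to -1.01, adjusted p = 0.0284). The 2 genes do not overlap in these coordinates. Whether counting used the strand is not stated, so fragments of a transcript that runs past its annotated end into the other gene could not be told apart. Of the 18 tested genes of the list for retinal stress and gliosis, Fgf2 was the only one called in the interaction. Chosen after their values were seen, others of the list were Socs3, a feedback inhibitor of cytokine signalling, at -0.90 (adjusted p = 0.35), Stat3 at -0.23 (adjusted p = 0.71) and the astrocyte filament gene Gfap at 3.31 (adjusted p = 0.24).

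Rpe65, Rgr and Oca2 are genes of pigmented epithelium: RPE65 is the isomerase of the visual cycle, RGR an opsin of RPE and Müller cells, and OCA2 a melanosome protein. Stretches of 250 bases before their RefSeq start sites (GRCm38.p6) are printed beside that of Ppara, as examples from the genes that rose in retina. Capitals mark TAATCC, the core that OTX and CRX homeodomain factors bind, and CATGTG, the E-box form bound by MITF, each searched on both strands (so GGATTA and CACATG also count).
Rpe65 (chr3:159598931-159599180, plus strand): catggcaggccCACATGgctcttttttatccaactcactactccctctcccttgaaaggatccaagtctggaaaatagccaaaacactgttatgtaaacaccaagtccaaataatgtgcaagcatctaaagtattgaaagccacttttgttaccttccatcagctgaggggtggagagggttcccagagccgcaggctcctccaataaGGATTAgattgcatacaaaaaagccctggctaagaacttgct
Rgr (chr14:37049015-37049264, minus strand): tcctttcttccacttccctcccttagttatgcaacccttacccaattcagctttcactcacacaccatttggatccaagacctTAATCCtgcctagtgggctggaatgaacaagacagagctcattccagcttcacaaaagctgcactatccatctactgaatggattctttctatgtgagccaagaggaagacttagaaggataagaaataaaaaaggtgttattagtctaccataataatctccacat
Oca2 (chr7:56239509-56239758, plus strand): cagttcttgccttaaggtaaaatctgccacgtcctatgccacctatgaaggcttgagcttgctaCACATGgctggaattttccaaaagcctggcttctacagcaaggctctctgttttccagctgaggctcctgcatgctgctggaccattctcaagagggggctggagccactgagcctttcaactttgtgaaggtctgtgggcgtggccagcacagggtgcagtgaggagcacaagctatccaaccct
Ppara (chr15:85735526-85735775, plus strand): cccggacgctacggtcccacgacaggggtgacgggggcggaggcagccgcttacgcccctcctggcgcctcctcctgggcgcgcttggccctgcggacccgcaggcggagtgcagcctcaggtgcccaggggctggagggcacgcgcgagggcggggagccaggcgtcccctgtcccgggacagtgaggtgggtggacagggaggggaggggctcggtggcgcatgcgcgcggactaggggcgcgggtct
The Rpe65 window held both motifs, the Rgr window TAATCC, the Oca2 window CATGTG and the Ppara window neither. The GC content was 45.2% for Rpe65, 41.2% for Rgr, 53.2% for Oca2 and 76.4% for Ppara, and the median over all promoters was 52.4%. Among the 32851 promoters of the table, 6.25% held TAATCC and 12.3% held CATGTG in the same 250 bases, and 17.7% held at least 1 of them. A promoter was found for 19 of the 22 called genes by symbol, as 22 windows. Only 3 of these 22 windows, those of Rpe65, Rgr and Oca2, held a match, beside the 17.7% of all promoters. The windows of Cftr, Arhgap29, Fgf2, Nudt6 and Spata6, which also rose in retina, held neither motif. A match describes letters and is not a shown binding site.

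Rpe65 was at 2.76, 2.65 and 3.56 FPKM in wild-type retina and at 10.7, 6.44 and 8.27 in knockout retina. In RPE/choroid it was at 1077, 1175 and 1290 in wild type and 955, 983 and 1190 in knockout. The retinal groups did not overlap, while those of RPE/choroid did. The log2 change was 1.48 (SE 0.184, adjusted p = 0.00222) in retina and -0.14 (SE 0.111, adjusted p = 0.58) in RPE/choroid. The interaction was -1.61 (SE 0.22, 95% interval -2.08 to -1.14, adjusted p = 0.00565).

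Rgr was at 6.06, 4.83 and 5.97 FPKM in wild-type retina and 21.2, 11.9 and 13.5 in knockout retina, against 1691 to 1821 in wild-type and 1447 to 1583 in knockout RPE/choroid. It differed from Rpe65 in that the knockout RPE/choroid values also lay below all wild-type values, though not past the test (log2 -0.24, adjusted p = 0.333). The interaction was -1.67 (SE 0.239, 95% interval -2.18 to -1.16, adjusted p = 0.00976). Oca2 rose from between 0.343 and 0.405 FPKM to between 0.896 and 1.35 in retina, with RPE/choroid at 93.7 to 96.0 in wild type and 82.7 to 95.3 in knockout. Its interaction was -1.62 (SE 0.253, 95% interval -2.16 to -1.08, adjusted p = 0.0158). Capn6, a calpain-family gene without protease activity, lies on the X chromosome and was called too, although it falls outside the naming rule. It was at 0.180 to 0.220 FPKM in wild-type retina, 0.421 to 0.478 in knockout retina, 34.6 to 41.0 in wild-type RPE/choroid and 32.8 to 36.8 in knockout RPE/choroid, with an interaction of -1.35 (SE 0.181, adjusted p = 0.00552).

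Knock-in retina, set against the same wild-type libraries, also lay above all wild-type values for Rpe65, Rgr, Oca2 and Capn6, none past the test. The share of all genes that did so was not taken. Rpe65 was at 5.04, 5.01 and 6.60 FPKM there (log2 0.84, adjusted p = 0.121). Rgr was at 9.77, 11.9 and 12.4 (log2 0.99, adjusted p = 0.145), and Oca2 at 0.955, 0.726 and 0.605 (log2 1.04, adjusted p = 0.185). Capn6 had a mean of 0.370 FPKM with an SD of 0.0618 (log2 0.93, adjusted p = 0.263).

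The size of these retinal differences was small beside the RPE/choroid level. The mean difference between knockout and wild-type retina was 0.464% of the wild-type RPE/choroid level for Rpe65, 0.56% for Rgr, 0.739% for Oca2 and 0.642% for Capn6. For Ppara it was 106%, for Fgf2 114%, for Nudt6 102%, for Spata6 21.7%, for Cftr 19.5% and for Arhgap29 5.22%. Among the RPE markers, 10 were at least 100-fold higher in wild-type RPE/choroid than in wild-type retina. All 10 had a higher mean in knockout retina, by 0.22% (Tyrp1) to 2.36% (Bmp4) of the RPE/choroid level, with a median of 0.542%. The cut uses the same wild-type retinal level from which the rise is measured, so this count is no test. The share over all genes past the cut was not taken. RPE markers below the cut that were lower in knockout retina were Rlbp1 (84.1% of wild type), Slc16a1 (88.8%), Best1 (94.4%) and Sulf1 (99.9%). The pigment gene Slc45a2, 251-fold higher in RPE/choroid, was at 99.3%. In a bulk sample more cells of a type and more RNA per cell cannot be told apart, and the part of RPE cells left on the retina in these differences was not tested beyond the values given.

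The whole RPE list was read against all genes. Of 26 RPE markers tested, 22 had a negative interaction and 2 were called, with a median of -0.83 against -0.018 over all genes. Among all 16222 genes tested, 8590 were negative and 7632 positive. Members of a list share libraries and can move together, so sign counts of lists are descriptions here. Lrat, Slc6a20a, Otx2 and Rlbp1 were singled out after their values were seen. Lrat, which makes the retinyl esters that RPE65 uses, rose in retina (log2 1.12, adjusted p = 0.029) and had an interaction of -1.18 (adjusted p = 0.099). Slc6a20a, an amino acid transporter gene, also rose in retina (log2 1.16, adjusted p = 0.024), with an interaction of -0.95 (adjusted p = 0.11). Otx2, which photoreceptors and bipolar cells express too, was at 0.02 (adjusted p = 0.98), and Rlbp1, also a Müller cell gene, at 0.18 (adjusted p = 0.56). Of 14 pigment cell genes 13 were negative and 1 (Oca2) was called, with a median of -0.64. The same 14 summed to between 75.6 and 83.3 FPKM in wild-type retina and between 90.5 and 106 in knockout retina.

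Cftr, Arhgap29 and Spata6 made up the rest of the genes that rose in retina. Cftr, the cyclic AMP-regulated chloride channel that serves RPE fluid transport, was at 0.0385, 0.0676 and 0.0983 FPKM in wild-type retina and 0.216, 0.334 and 0.332 in knockout retina. In RPE/choroid it was at 0.949 to 1.28 in wild type and 0.820 to 1.60 in knockout, and the interaction was -2.17 (SE 0.338, 95% interval -2.88 to -1.45, adjusted p = 0.015). These retinal values rest on 5 to 7 fragments per library in wild type and 25 to 56 in knockout.

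Arhgap29, a GTPase-activating protein gene, is the called gene closest to the targeted locus. It spans 121656243 to 121719071 on chromosome 3 (mm9), upstream of the start of Abca4 at 121747377 in map order. It was at 1.43, 1.71 and 1.57 FPKM in wild-type retina and 2.24, 2.77 and 3.30 in knockout retina, against 20.3 to 26.3 in wild-type and 17.4 to 21.2 in knockout RPE/choroid. The retinal groups were apart and the RPE/choroid groups overlapped. The log2 change was 0.77 in retina (adjusted p = 0.0124) and -0.27 in RPE/choroid (adjusted p = 0.188), with an interaction of -1.03 (SE 0.162, 95% interval -1.37 to -0.69, adjusted p = 0.015). In knock-in retina, compared with the same wild-type libraries, it was at 3.34, 2.60 and 3.45 FPKM and passed the test as well (log2 0.95, adjusted p = 0.00462). Spata6, a sperm neck protein gene, was at 2.58 to 3.21 FPKM in wild-type retina and 4.22 to 6.20 in knockout retina, while RPE/choroid held 8.56 to 10.4 and 8.33 to 10.6. Its interaction was -0.74 (SE 0.139, adjusted p = 0.0475).

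Tm7sf3, a gene for a membrane protein with 7 predicted passes, was the single called gene that fell in retina and not past the test in RPE/choroid. It was at 36.5, 33.9 and 32.5 FPKM in wild-type retina and 27.1, 24.8 and 25 in knockout retina. RPE/choroid held 52.4, 52.5 and 63.3 in wild type and 54.4, 54.0 and 65.6 in knockout. The drop to 72.7% of wild type was small but regular, with no overlap in retina and full overlap in RPE/choroid. The interaction was 0.50 (SE 0.0569, 95% interval 0.38 to 0.62, adjusted p = 0.000776).

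**Figure D3:**
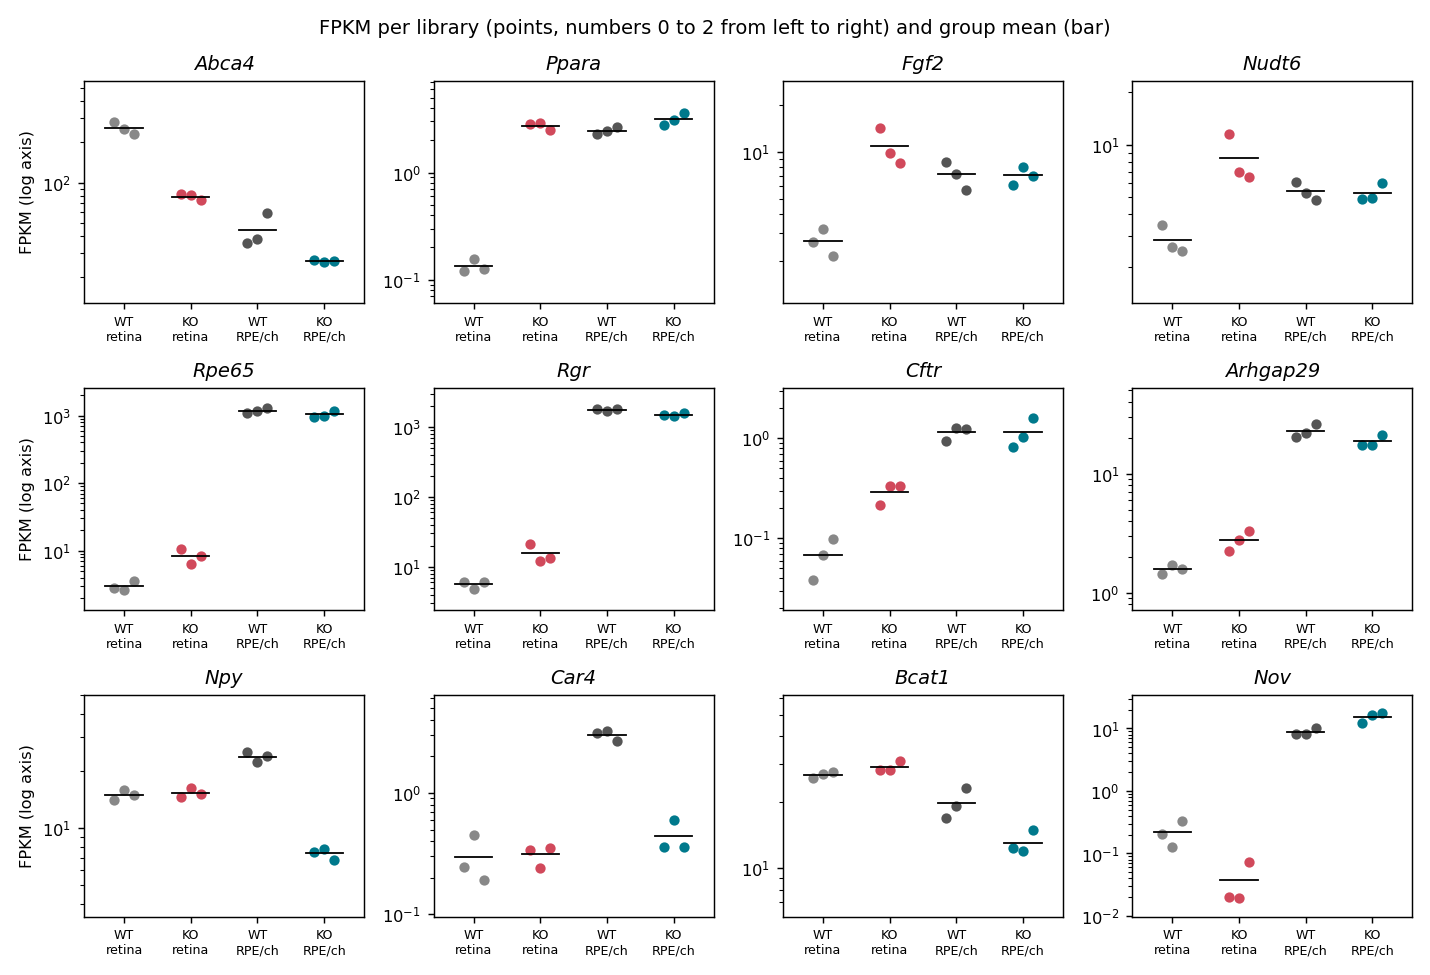
FPKM (log axis) of Abca4 and 11 called genes in each library of wild-type (WT) and knockout (KO) retina and RPE/choroid (points, numbers 0 to 2 from left to right), with the group mean as a bar. Fgf2, Nudt6, Rpe65, Cftr and Arhgap29 are separated in retina alone, and Npy and Car4 in RPE/choroid alone. Abca4, Ppara, Rgr, Bcat1 and Nov are separated in both tissues. The share of all genes with separated groups was not taken.

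The genes that changed in RPE/choroid follow. In 6 of the 22 genes the RPE/choroid fell and in 2 it rose, without a called change in retina. Npy, the neuropeptide Y of amacrine cells, sympathetic nerves and glia, was at 25.2, 22.2 and 23.9 FPKM in wild-type RPE/choroid and 7.47, 7.80 and 6.84 in knockout. Retinal groups overlapped, at 14, 15.8 and 15 in wild type and 14.6, 16.3 and 15.1 in knockout. Npy thus stood above its retinal level in wild-type RPE/choroid and below it in knockout RPE/choroid. The log2 change was -1.74 (SE 0.135, adjusted p = 0.000488) in RPE/choroid and 0.05 (SE 0.136, adjusted p = 0.935) in retina, with an interaction of -1.78 (SE 0.182, 95% interval -2.16 to -1.39, adjusted p = 0.000302). Knock-in RPE/choroid was at 19.6, 20.3 and 13.2.

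Car4 encodes carbonic anhydrase IV, a membrane-bound enzyme of the choriocapillaris. It was at 3.12, 3.22 and 2.66 FPKM in wild-type RPE/choroid and 0.356, 0.599 and 0.361 in knockout, a fall to 14.3% of wild type. The retina held 0.192 to 0.452 in wild type and 0.243 to 0.353 in knockout; the knockout RPE/choroid values overlap these. With 3 to 9 fragments per retinal library, Car4 was below the count filter of the retinal fit and was not tested there. The interaction was -2.85 (SE 0.478, 95% interval -3.86 to -1.83, adjusted p = 0.0227). Of 20 endothelial and pericyte genes, markers of vessels, edgeR called 0 in the interaction, 15 were positive and the median was 0.17. Their summed level was 745 to 759 FPKM in wild-type and 797 to 856 in knockout RPE/choroid.

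Bcat1, the cytosolic branched-chain aminotransferase, was at 16.9, 19.3 and 23.2 FPKM in wild-type RPE/choroid and 12.4, 12 and 14.9 in knockout. Knockout retina lay above wild type within a narrow range, with 25.8, 26.8 and 27.5 in wild type and 28.2, 28.1 and 31.0 in knockout. The interaction was -0.67 (SE 0.0783, 95% interval -0.84 to -0.51, adjusted p = 0.000859), with log2 changes of -0.59 (adjusted p = 0.00191) in RPE/choroid and 0.09 (adjusted p = 0.523) in retina.

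Acbd4, an acyl-CoA-binding protein of peroxisome contacts, was at 16 to 19.5 FPKM in wild-type and 9.59 to 11.4 in knockout RPE/choroid, against 14.4 to 22.2 and 15.3 to 19.1 in retina. Its interaction was -0.62 (SE 0.101, adjusted p = 0.0182). Pepd, the dipeptidase that frees proline from collagen fragments, had a smaller difference of -0.42 (SE 0.0736, adjusted p = 0.0321), with 33.7 to 42.1 FPKM in wild-type and 27.3 to 34.1 in knockout RPE/choroid, ranges that overlap. Both genes fell in RPE/choroid and did not pass the test in retina.

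AA465934, listed by RefSeq as a long non-coding RNA, had the lowest knockout share in RPE/choroid among the 22 genes. It was at 47.6, 36.0 and 36.9 FPKM in wild-type RPE/choroid and 4.99, 2.39 and 2.09 in knockout, a fall to 7.61% of wild type (log2 -3.72, SE 0.214, adjusted p = 6.15e-05). In retina it was at 71.6, 69.6 and 65.9 in wild type and 49.3, 47.1 and 12 in knockout. Knockout retinal library 2, the one with the most lens transcripts, stood far below the other knockout libraries, and all 3 lay below wild type. The interaction was -2.80 (SE 0.498, 95% interval -3.86 to -1.74, adjusted p = 0.0397).

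Nov and Ptprz1 rose in RPE/choroid. Nov, named Ccn3 in RefSeq, was at 8.29, 8.20 and 10.1 FPKM in wild-type RPE/choroid and 12.1, 16.4 and 17.4 in knockout (log2 0.80, SE 0.0853, adjusted p = 0.00351). The retina held 0.202, 0.125 and 0.329 FPKM in wild type and 0.0199, 0.0194 and 0.0741 in knockout, which is 4 to 8 fragments per library against 1 to 2. Its interaction was 3.45 (SE 0.46, 95% interval 2.47 to 4.42, adjusted p = 0.00401). The RPE/choroid change of 0.80 is the smaller part of this value, and the larger part rests on the fall in these few retinal fragments. The retinal counts were below the filter of the retinal fit, and over the alternatives the value ran from 0.94 (limma on log2(FPKM + 1), not called) to 4.07 (with a term for RPE content, not called). Ptprz1, a receptor phosphatase of glia, went from 5.93, 6.95 and 8.13 to 7.85, 9.06 and 11.8 FPKM in RPE/choroid, where groups overlapped, with 4.67 to 5.67 and 5.17 to 5.86 in retina. Its log2 change was 0.44 (adjusted p = 0.00359) in RPE/choroid, and the interaction of 0.36 (SE 0.064, adjusted p = 0.0354) was the smallest called. Knock-in RPE/choroid, set against the same wild-type libraries, also passed the test for Ptprz1 (log2 0.39, adjusted p = 0.0263).

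In 4 genes the interaction was called although neither tissue passed alone, Capn6 being one of them. Ppp2r2c, a brain regulatory subunit of protein phosphatase PP2A, was at 3.28 to 3.97 FPKM in wild-type and 5.41 to 6.59 in knockout RPE/choroid, against 25.2 to 29.8 and 24.3 to 26.4 in retina (interaction 0.78, SE 0.139, adjusted p = 0.0354). Cdnf, a neurotrophic factor of the endoplasmic reticulum, had values on both sides: 1.90 to 2.53 and 1.35 to 1.96 FPKM in wild-type and knockout retina, 2.83 to 3.18 and 3.26 to 4.43 in RPE/choroid (interaction 0.92, SE 0.168, adjusted p = 0.0397). Mysm1, a histone H2A deubiquitinase, overlapped in both tissues (interaction 0.46, SE 0.0823, adjusted p = 0.0354), with 9.38 to 12.6 and 8.22 to 11.6 FPKM in retina and 6.42 to 10.2 and 7.07 to 11.2 in RPE/choroid.

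**Figure D4:**
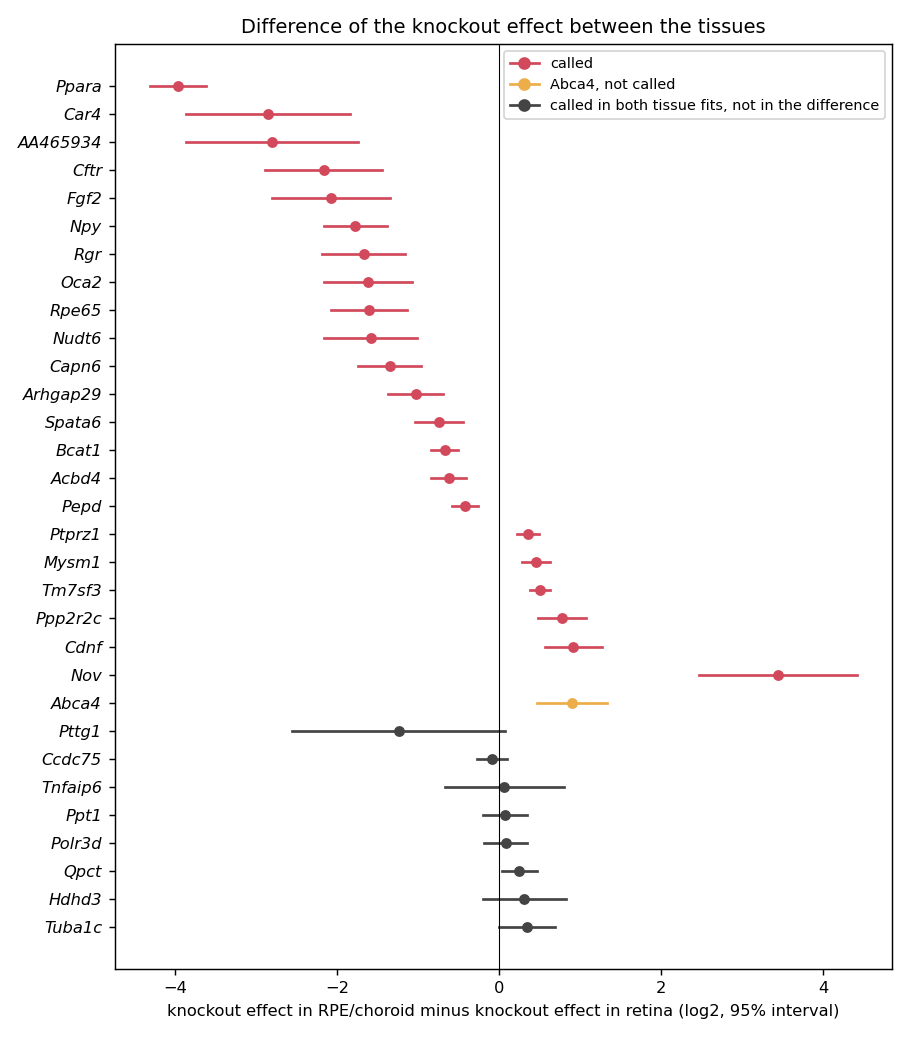
Interaction (knockout effect in RPE/choroid minus that in retina, log2) with its 95% interval for the 22 called genes, Abca4 and 8 genes called in both tissue fits. The called genes run from -3.96 (Ppara) to 3.45 (Nov), Abca4 lies at 0.90, and 7 of the 8 shared genes have an interval that reaches 0.

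Genes called in the same direction in both tissues give the counterpart. Whether their effects were equal in size was not tested. The separate tissue tests called 9 genes in both, all in the same direction, and none of them was called in the interaction by edgeR (1, Qpct, had an unadjusted p under 0.05). Pttg1, the securin gene of chromosome separation, was at 0.515 to 1.01 FPKM in wild-type and 13.4 to 33.5 in knockout retina, and at 4.58 to 6.34 and 51.2 to 64.8 in RPE/choroid. Its log2 change was 4.60 in retina (adjusted p = 0.0101) and 3.34 in RPE/choroid (adjusted p = 1.89e-05). The interaction of -1.24 had a 95% interval from -2.55 to 0.07, the widest of the 9. Ppt1, a lysosomal palmitoyl thioesterase, had a much narrower interval, from -0.19 to 0.34 around 0.07, with log2 changes of -0.71 (adjusted p = 0.00807) and -0.65 (adjusted p = 0.00132). Tnfaip6, a hyaluronan-binding protein gene, fell by 1.44 in retina (adjusted p = 0.0353) and by 1.38 in RPE/choroid (adjusted p = 0.0188) on the log2 scale, with an interval from -0.67 to 0.80. For the tubulin gene Tuba1c the interaction was 0.34 (SE 0.163), and for Qpct, which forms pyroglutamate ends on peptides, it was 0.25 with an interval from 0.04 to 0.46.

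Over all genes the 2 tissues were compared as a whole. Across the 13939 genes tested in both tissue fits the log2 changes had a Pearson r of 0.098 and a Spearman correlation of 0.097. Both are descriptions across genes that share libraries within each tissue. These and the shares below include wild-type RPE/choroid library 2, without which 462 genes were called in RPE/choroid in place of 73. Of the 138 genes called in retina and tested in both, 106 (76.8%) had the same sign in RPE/choroid, against 53.1% of all genes. Their median change was 0.61 in retina and 0.19 in RPE/choroid, each taken in the direction of the retinal call. Of 57 genes called in RPE/choroid, 47 (82.5%) had the same sign in retina, with medians of 0.66 and 0.26. The interaction itself was called for 10 of the 144 genes called in retina and for 8 of the 73 called in RPE/choroid. Being called in 1 tissue alone is therefore not the same as a tested difference between tissues.

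Gene lists were then read against the background of 0.136% of genes called, and of 8590 negative and 7632 positive among the 16222 tested. Apart from the RPE, pigment, retinoid cycle, stress, PPAR and angiogenesis lists, which hold Rpe65, Rgr, Oca2, Ppara or Fgf2, none of the other 31 lists had a gene called by edgeR with all libraries. Without wild-type RPE/choroid library 2, edgeR called members of several of these lists, given further on. For the motile cilium, 12 of 14 tested genes had a positive interaction, with a median of 0.50. Within retina 4 of these genes fell, among them Foxj1, the regulator of motile cilia (log2 -1.37, adjusted p = 0.0017), and the kinesin gene Kif27 (log2 -1.66, adjusted p = 3.4e-05). Kif27 went from 2.32, 2.79 and 2.88 to 0.866, 0.784 and 0.787 FPKM in retina, while RPE/choroid held 0.0868 to 0.326 in wild type and 0.104 to 0.181 in knockout. Its interaction was 1.48 (SE 0.485, adjusted p = 0.226). Without wild-type RPE/choroid library 2 it was 2.27 (SE 0.349) and called, and over all alternatives the adjusted p ranged from 0.000679 to 1.

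With all libraries edgeR called no gene of the microglia list. Of 19 genes of microglia and macrophages 16 had a negative interaction, with a median of -0.59, and C1qa, which starts the classical complement pathway, was at -1.07 (adjusted p = 0.113). Without wild-type RPE/choroid library 2, C1qa (-1.19), C1qc (-0.99) and Ctss (-0.86) of this list were called. Its FPKM was 3.13 to 4.81 in wild-type and 4.47 to 9.95 in knockout retina, and 35.3 to 63.6 and 34.9 to 43.5 in RPE/choroid. Among lysosome and phagocytosis genes, which serve the digestion of outer segments, 20 of 24 were negative but the median was -0.11. Within retina 2 genes of this list rose and 1 fell. The gene that fell was Cd36, the member of smallest p, with an interaction of 1.29 (adjusted p = 0.0601). Gpnmb, a lysosomal glycoprotein of pigment cells and macrophages, was singled out after its values were seen. It rose in retina (log2 0.83, adjusted p = 0.041) and had an interaction of -0.90 (adjusted p = 0.099). All 25 lens genes had a negative interaction, with a median of -4.97 and no call, beside the lens levels given above. The proteasome and respiratory chain lists, with 29 of 31 and 28 of 34 members negative, had medians of only -0.13 and -0.11. Clu, a chaperone of Müller glia, rose in retina from between 269 and 287 to between 378 and 422 FPKM (log2 0.54, adjusted p = 0.00142), with an interaction of -0.53 (adjusted p = 0.0985).

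Wild-type RPE/choroid library 2 decides the direction of the photoreceptor and neuron lists. The rod genes summed to 281, 381 and 3231 FPKM in wild-type RPE/choroid and to 436, 611 and 776 in knockout, so 1 library carried most of the wild-type signal. With all libraries the median interaction was -1.06 over 19 rod genes, -0.82 over 12 cone genes, -1.02 over 22 photoreceptor structure genes and -0.65 over 28 genes of inner retinal neurons. Without that library the same medians were 1.34, 1.24, 1.24 and 1.17. No direction is therefore given for these lists. The number of genes called rose from 22 to 337 of 16348 (2.06%), 206 of them positive, and all 22 genes called with every library remained among them. The median of the RPE markers was -0.83 both ways, and 5 of the 26 were then called in place of 2, with Krt8, Krt18 and Ptgds added. Members of other lists called without that library, and not with it, were among others positive for Kif27, the intraflagellar transport genes Bbs1 (0.40) and Ift81 (0.43), Emcn of endothelium (0.82), Neb of muscle (1.79) and Cd36 (1.20). Among others they were negative for C1qa, C1qc and Ctss, for Col8a2 of the choroidal matrix (-1.15), Gpnmb (-0.90), Clu (-0.51), Sod1 (-0.34), the proteasome gene Psmb2 (-0.37) and the respiratory chain gene Ndufa1 (-0.45). The photoreceptor and neuron lists also gained calls, all positive.

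**Figure D5:**
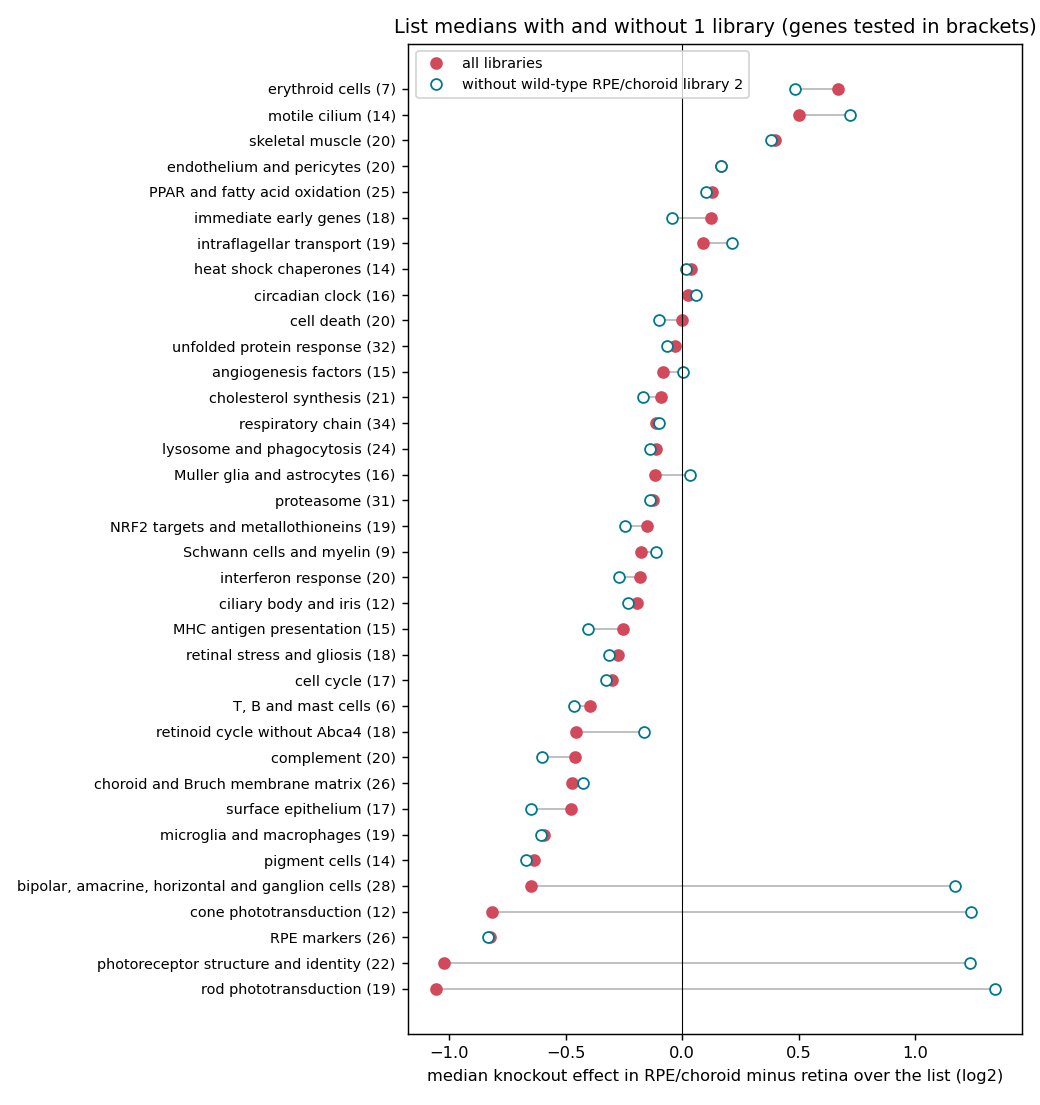
Median interaction (log2) of each gene list with all libraries (filled) and without wild-type RPE/choroid library 2 (open); the lens list (-4.97 and -5.23) is left out for scale. Rod, cone, photoreceptor structure and inner retinal neuron lists change sign, as do some lists with medians near 0, while RPE markers and pigment cells stay below 0.

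Terms for tissue content were added to the fit for the 22 genes. With the RPE marker level of each retinal library as a further term, Ppara alone was still called. The standard errors were then between 198% and 284% of those without the term, and the interaction between 17.5% (Oca2) and 151% (Spata6) of its value, with Rpe65 at -1.67 and Fgf2 at -3.08. Rpe65 and Rgr are part of that list. With a term for the lens genes 8 of the 22 genes were still called, at 82.1% to 123% of their value, and with a term for rod genes in RPE/choroid all 22 were.

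Leaving out single libraries ended some calls and turned no direction. Ppara, Npy, Tm7sf3, Bcat1, Nov, Rpe65 and Rgr were called without each of the 12 libraries. The other 15 genes lost their call at least once, in 90 of 264 gene and library pairs, with adjusted p between 0.0511 and 0.164. Arhgap29 lost it without wild-type retina library 0 (0.057), and Capn6, Oca2 and Cftr without wild-type retina library 0 or 1. Acbd4 lost it without 3 libraries, Fgf2 without 4, Car4 without 6, Nudt6 without 7, and Pepd and Spata6 without 8. Mysm1, Cdnf and AA465934 lost it without 9 and Ptprz1 and Ppp2r2c without 10, so these rest on all libraries together. The interaction kept its sign in all 90 cases.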

How the data were processed

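Total RNA depleted of ribosomal RNA was sequenced from mouse retina and RPE/choroid. TopHat, Bowtie2 and Cufflinks and the mm9 build are named in the submitters' processing notes. For their versions, the annotation and any use of strand, the entry is: not given in the sources used here. Deposited tables hold, per library and gene, estimated counts of assigned fragments (98.5% whole in retina, 98.4% in RPE/choroid) and FPKM scaled by the authors, per the file headers. FPKM of the 2 tissues were scaled separately, so levels set across tissues carry that limit. Library numbers 0 to 2 are those of the tables and could not be tied to the labels' numbers.

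The 2 tables (22558 genes each) were joined by gene name after 25 names turned into dates were restored; failed estimates numbered 10 in retina and 3 in RPE/choroid. Fragments were rounded and fitted over 6 groups and 18 libraries with edgeR 4.0.16 in R 4.3.3 (TMM scaling, filterByExpr, robust quasi-likelihood test, Benjamini-Hochberg adjusted p of 0.05). Interaction values come from this fit and tissue log2 changes from separate fits on 9 libraries each; limma 3.58.1 and DESeq2 1.42.0 served as alternatives. SE is the log2 change over the root of F. In data simulated for the interaction (16153 genes), 32.8% of genes changed 1.5-fold, 62.7% changed 2-fold and 87.9% changed 4-fold were found. The changed genes were drawn above a minimum mean count and changed in knockout RPE/choroid only. Changes in retina at few fragments were not simulated.

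Named genes were Abca4, up to 15 called genes a direction with a mean FPKM of at least 1 in a group (no small RNA, predicted or sex-linked genes), up to 3 called members or the member of smallest p of each of 37 lists, and up to 10 genes called in both tissues; some items are not reported here. The members and lists were chosen with earlier results of these data known. Alternatives were other scaling, filters, tools, pseudocounts of 1 and 0.1, a fold threshold, a replicate block, terms for sex, lens, RPE and rod content, the 12 libraries alone, and each library left out. Promoter sequences are RefSeq's (GRCm38.p6), with the 250 bases before each start searched.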

Additional observations from a re-analysis of the deposited data

Results flagged for a closer look

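The test of the difference between tissues itself singled out 21 named genes. On the log2 scale the values were negative, meaning lower in knockout RPE/choroid relative to retina, for Ppara (-3.96), Car4 (-2.85), AA465934 (-2.80), Cftr (-2.17), Fgf2 (-2.08), Npy (-1.78), Rgr (-1.67), Oca2 (-1.62), Rpe65 (-1.61) and Nudt6 (-1.59). Smaller negative values were those of Arhgap29 (-1.03), Spata6 (-0.74), Bcat1 (-0.67), Acbd4 (-0.62) and Pepd (-0.42). The positive values were those of Nov (3.45), Cdnf (0.92), Ppp2r2c (0.78), Tm7sf3 (0.50), Mysm1 (0.46) and Ptprz1 (0.36).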

How the results depend on the processing

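The interaction called 22 genes. It called 242 with DESeq2 (all 22 among them), 3 against a 1.5-fold threshold, 14 with a lens term, 1 with an RPE term, 92 with a rod term, and 9 to 337 with a library left out (337 without wild-type RPE/choroid library 2, 60 without knockout retina library 0, 9 without wild-type retina library 0). Other settings called 16 (with a sex term) to 30, but limma on log2(FPKM + 1) shared only 6 of its 30 genes with edgeR. At a pseudocount of 0.1, limma shared 8 of its 17. The 12 libraries alone called 21 genes, of which only 14 were among the 22. Cdnf, Ptprz1, Car4, AA465934, Nudt6, Spata6, Acbd4 and Pepd were not called without the knock-in libraries. Retina (144) had 327 calls with DESeq2, 29 with limma and 53 to 253 with a library left out; RPE/choroid (73) had 538, 17 and 22 to 462. Same-numbered libraries correlated between -0.057 and 0.276 in their deviations from the group means. Libraries of different numbers were not correlated, so whether the numbers pair the samples could not be judged. With the number as a replicate block the interaction called 8 genes (7 shared), retina 194 and RPE/choroid 28. The causes of these shifts were not tested.

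Of 60 named genes under 27 settings, 1354 values kept direction and call, 212 lost the call, 37 gained it and 15 changed sign, none of the last being called. Slc4a1 was at -0.056 and -0.11 with limma at pseudocounts of 1 and 0.1. Tnfaip6 was at -0.13 with limma and -0.10 with a lens term. With a library left out it ran from -0.13 to 0.37. Without knockout retina library 1 or 2 it was at -0.03 or -0.13, without wild-type RPE/choroid library 0 at -0.05 and without knockout RPE/choroid library 0 at -0.06. Ppt1 was at -0.10 with a lens term and ran from -0.064 to 0.24 with a library left out, and Polr3d from -0.026 to 0.16, both lowest without knockout retina library 2. With an RPE term Psmb8 was at 0.68, Dsg1a at 4.10, Pmp22 at 0.68 and Ccnb2 at 0.15. With 3 libraries a group and retinal counts under 10 fragments, differences in genes such as Car4 and Nov are limited by depth.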
